A study of Mus musculus with 6 samples.

Results

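The genes described here encode the subunits of oxidative phosphorylation, measured by RNA-seq in cultured mouse muscle stem cells of controls and Med23 knockouts. Med23 is a subunit of Mediator, the coactivator between transcription factors and RNA polymerase II. Members were chosen by gene name alone, from the symbol families of complexes I to V (Nduf, Sdh, Uqcr, Cox4 to Cox8, Cyc1 and Atp5), leaving out assembly factors and 1 name with the suffix -ps. The rule found 85 of the 32973 genes in the table. By complex these were 35 genes of complex I, 4 of complex II, 9 of complex III, 20 of complex IV and 17 of complex V. Ndufa4 and Ndufa4l2 were placed with complex IV, where the Ndufa4 protein is found. Atp5s and Atp5sl carry the name of complex V, but their products (also called Dmac2l and Dmac2) are not structural subunits of it.

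The libraries were 3 controls (Ctrl, genotype Med23flox/flox) and 3 knockouts (Med23KO, genotype Med23flox/flox::Pax7CreERT2). Both groups carried the floxed Med23 alleles, and the knockouts alone carried the Pax7-driven CreERT2, a recombinase that needs an oestrogen-receptor ligand, so the presence of Cre and the loss of Med23 cannot be told apart. The labels give no treatment for either group, and neither how recombination was induced nor the age of the mice. Cells were sorted by FACS and grown for 3 days on collagen in serum-rich medium with bFGF, and nothing states whether the libraries of a group came from separate animals, so p-values measure the spread between these libraries only.

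Oxidative phosphorylation is the set of inner mitochondrial membrane complexes that carry electrons from NADH (complex I) and succinate (complex II) through complex III and cytochrome c to oxygen (complex IV), while complex V uses the resulting proton gradient to make ATP. Most subunits come from nuclear genes, and NRF1, GABPA and the oestrogen-related receptors, with the PGC-1 coactivators, are known to drive many of them. Skeletal and heart muscle replace 3 widely expressed complex IV subunits by isoforms of their own, Cox6a2, Cox7a1 and Cox8b, as muscle cells mature.

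Promoter sequences are shown for 3 genes on which the results turn: Ndufs5, which passed the test, Ndufv3, which had the largest positive difference, and Cox8b, a muscle isoform listed at 0 in 5 of the 6 libraries. Each is the stretch just upstream of the annotated start, 5′ to 3′ on the gene's strand, from the RefSeq promoter table (GRCm38.p6), which matched 69 of the 85 members. Capitals mark matches, on either strand, to the motifs searched: the NRF1 motif (its palindrome with any base in the centre), CCGGAAGT (ETS factors such as GABPA), AAGGTCA (oestrogen-related receptors), CAGCTG (an E-box of myogenic factors) and the MEF2 motif. The Ndufs5 stretch is chr4:123718203-123718436 (minus strand), that of Ndufv3 is chr17:31519865-31520114 (plus strand) and that of Cox8b is chr7:140900447-140900696 (minus strand).
Ndufs5: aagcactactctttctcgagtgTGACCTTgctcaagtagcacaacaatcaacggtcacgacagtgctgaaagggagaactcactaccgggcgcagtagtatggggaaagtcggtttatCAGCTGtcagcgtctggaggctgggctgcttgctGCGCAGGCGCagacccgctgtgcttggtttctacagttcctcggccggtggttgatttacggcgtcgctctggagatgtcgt
Ndufv3: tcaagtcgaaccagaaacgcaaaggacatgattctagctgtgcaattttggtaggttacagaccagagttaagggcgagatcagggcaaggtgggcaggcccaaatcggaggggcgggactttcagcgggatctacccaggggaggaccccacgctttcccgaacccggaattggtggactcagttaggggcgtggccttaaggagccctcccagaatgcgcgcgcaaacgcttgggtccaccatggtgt
Cox8b: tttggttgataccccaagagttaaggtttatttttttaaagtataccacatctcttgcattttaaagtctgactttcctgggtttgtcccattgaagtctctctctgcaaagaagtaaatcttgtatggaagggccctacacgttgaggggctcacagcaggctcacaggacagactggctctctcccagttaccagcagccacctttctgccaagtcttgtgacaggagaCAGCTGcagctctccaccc
The Ndufs5 stretch held an NRF1 match, an oestrogen-related receptor match on the strand opposite to the gene, and an E-box. That of Cox8b held an E-box, and that of Ndufv3 held none of the motifs. The shares below are of genes, and their search also covered the 50 bases after the start, which are not printed. Among the 67 tested members with a promoter, 25.4% held the NRF1 motif, against 12.4% of the 8723 tested genes with a promoter and 5.19% of all 27025 genes with one. The AAGGTCA motif was in 11.9% of the members, 3.66% of those tested genes and 5.38% of all genes with a promoter. CAGCTG was in 7.46%, 17.6% and 18.3% of these sets, and CCGGAAGT in 7.46%, 9.76% and 4.31%. The MEF2 motif was in 0 of the 67 members, against 2.01% of the tested genes and 3.7% of all genes with a promoter. Matches are descriptions of these windows, and none was tested for use by a factor.

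Med23 itself, from the table's FPKM (a level per transcript length, scaled between libraries), was at 10.4, 11.7 and 10.2 in the controls and 5.10, 5.86 and 4.23 in the knockouts, so the groups did not overlap. Med23 RNA was thus lower in the knockouts but still present. Its log2 fold change was -0.96 (SE 0.133, adjusted p = 0.0197, limma with Benjamini-Hochberg adjustment), a call that held without knockout 3 and was lost when any other library was left out (adjusted p up to 0.108). All log2 fold changes here compare knockouts with controls on the log2(FPKM + 1) scale, which understates the change of low genes, and genes were tested where the mean over the 6 libraries was at least 1 FPKM. The depth of the libraries is unknown, and all rows together summed to between 697886 and 746973 FPKM per control library and between 599738 and 675095 per knockout library. Of 7 marker genes of muscle stem cells and myoblasts, all 7 were tested in these cells, including Pax7 at 34.5 to 57.7 FPKM in controls and 32.4 to 60.3 in knockouts. Of 14 fibroblast and fibro-adipogenic markers, 12 were tested with 0 called (2 higher when libraries were scaled without the noncoding RNA gene Rmrp, and also without knockout 3). Of these 12, 0 had a log2 fold change below 0, against 6770 of all 12336 tested genes, and their median was 0.48. The summed level of the 14 was 231 to 300 FPKM in controls and 307 to 469 in knockouts. Col3a1 alone was at 138 to 182 FPKM in controls and 183 to 286 in knockouts. Summed levels of markers of immune cells were 12.1 to 24.9 and 11.9 to 37.9 FPKM, of endothelial cells 7.13 to 14.4 and 7.17 to 9.92, of smooth muscle and pericytes 21.7 to 33.1 and 15.7 to 25.9, of brown adipocytes 3.51 to 7.05 and 5.34 to 8.27, and of glia 2.05 to 2.08 and 1.79 to 2.09. Of these lists' markers, Ptprc, Adipoq and Ucp1 stayed under 0.1 FPKM and Cidec was listed at 0 in all 6 libraries. Others were present, with the immune marker Lyz2 at 9.40 to 35.0 FPKM and Cd68 at 1.30 to 2.37, and the brown adipocyte markers Dio2 at 1.70 to 5.46 and Elovl3 at 1.35 to 2.68. The part of these cells in the results below was not tested. In bulk RNA, fewer cells of a type and less RNA per cell cannot be told apart.

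Oxidative phosphorylation genes were among the more highly expressed genes of these cells, at nearly the same level in both groups. Of the 85 members, 79 passed the filter on low values and 6, all of complex IV, did not. The median of the tested members' mean levels was 96.2 FPKM, against 10.9 FPKM over the 12336 tested genes, and 62 members lay in the top 10% of tested genes (at or above 56.0 FPKM). Their summed FPKM was 12215, 11397 and 10167 in the controls and 12475, 11403 and 9613 in the knockouts. The groups overlapped, and in each the library numbered 3 was the lowest.

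Of the 79 tested members, 1 fell, 0 rose and 78 did not pass the threshold of 0.05. That is 1.27% of members called, against 2.91% of all tested genes (359 genes, 1.49% higher and 1.42% lower). At an unadjusted p under 0.05 there were 6 members (7.59%), 3 higher and 3 lower, against 19.7% of all tested genes. In 8 members (10.1%) the knockout and control values did not overlap, against 24.7% of all tested genes. Those 8 were Ndufv3 and Atp5s, higher in knockouts (2.53%, background 10%), and Ndufs5, Ndufs6, Ndufb3, Ndufb5, Cox7b and Atp5c1, lower in knockouts (7.59%, background 14.7%). The authors' deposited table, from Cuffdiff, called 3 members at a q under 0.05, namely Ndufs5 (q = 0.00132), Ndufv3 (q = 0.000695) and Ndufa4 (q = 0.0155). By that rule 15.6% of all tested genes were called.

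The differences between the groups were small for nearly all members. The fitted log2 fold changes ranged from -0.61 to 0.91 with a median of -0.06, against a median of -0.03 over all tested genes, and 53 of 79 were below 0. The side of 0 on which the median fell depended on the scaling. When libraries were scaled by their sum without Rmrp, the members' median was 0.04, 28 were below 0, and the median of all tested genes was 0.06. Rmrp took between 173041 FPKM (knockout 3) and 239590 FPKM (control 1) per library. It was lower in every knockout library than in every control library. For 60 members (75.9%) the 95% interval of the fold change lay within 1.5-fold in either direction, against 60.3% of all tested genes. For 77 members the fitted change itself was under 1.5-fold, the exceptions being Ndufs5 and Ndufv3. The pseudocount of 1 lowers this for Atp5s, a low gene, whose knockout mean was 167% of the control mean and whose log2 fold change was 0.55 here, 0.63 with a pseudocount of 0.5 and 0.70 with 0.1. The median SE was 0.132 for members and 0.145 for all tested genes.

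**Figure D1:**
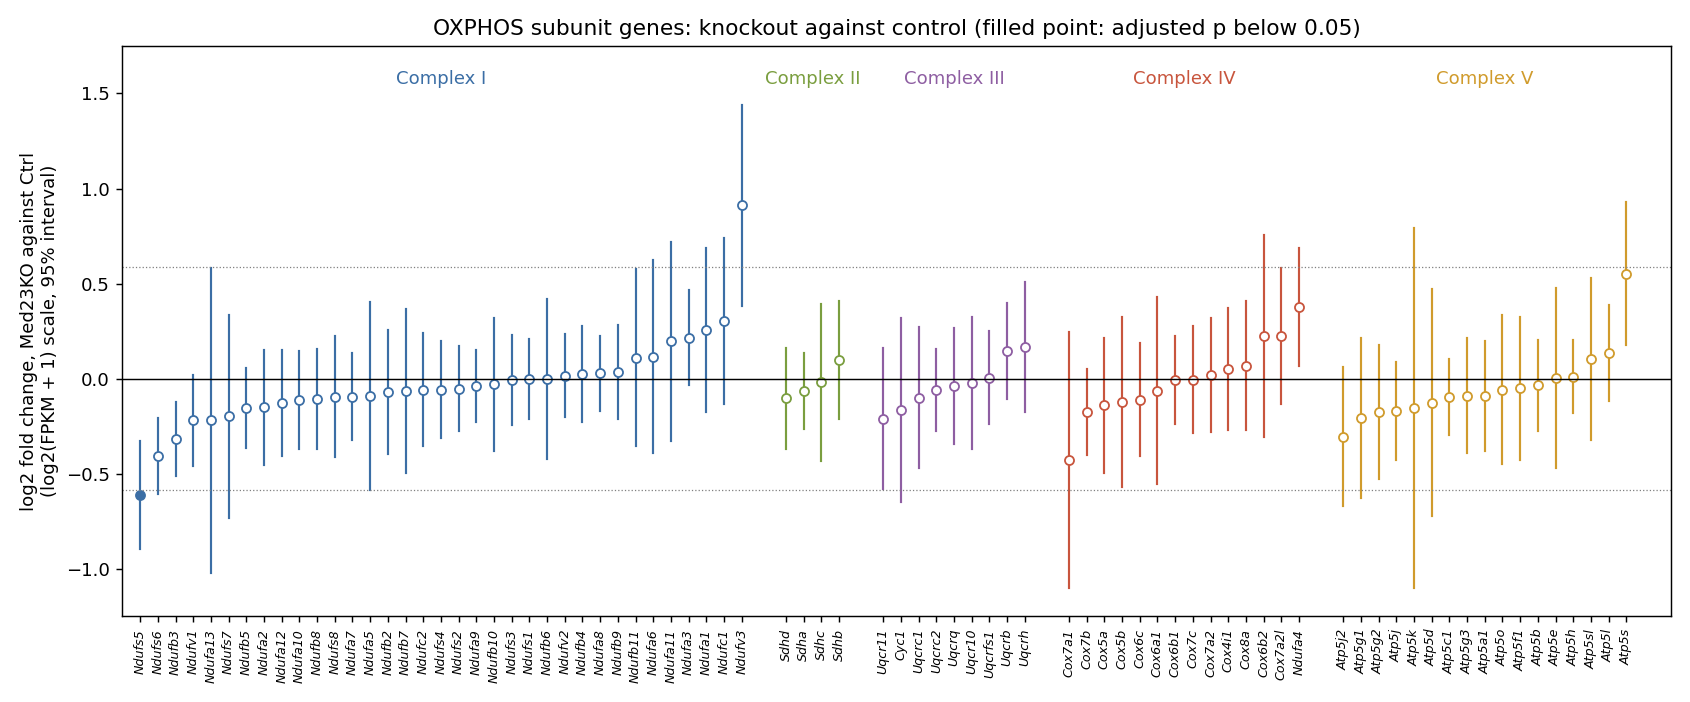
Log2 fold change of each of the 79 tested members, Med23KO against Ctrl (vertical axis, log2(FPKM + 1) scale, 95% interval), ordered by size within complexes I to V along the horizontal axis; dotted lines mark 1.5-fold. Ndufs5 at the left end of complex I is the filled point that passed the test, Ndufv3 at the right end is the largest positive value, and most other points lie close to 0.

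By complex the medians were close to one another. Complex I had a median log2 fold change of -0.06 (35 tested, 24 below 0), complex II -0.04 (4 tested, 3 below 0), complex III -0.04 (9 tested, 6 below 0), complex IV -0.01 (14 tested, 8 below 0) and complex V -0.09 (17 tested, 12 below 0). The only call was in complex I, and the differences between complexes were not tested. Within 1.5-fold lay the intervals of 25 complex I members, 4 of complex II, 8 of complex III, 11 of complex IV and 12 of complex V.

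Complex I oxidises NADH and passes its electrons to ubiquinone. Its most abundant member was Ndufa3, an accessory subunit, at 213, 250 and 207 FPKM in controls and 275, 238 and 265 in knockouts. Those ranges overlapped (log2 fold change 0.22, SE 0.107, adjusted p = 0.326, limma). Neither core subunit described here passed the test. Ndufs1, which carries iron-sulphur clusters of the NADH-oxidising arm, was at 51.0, 50.1 and 53.9 FPKM and then 50.7, 49.3 and 55.0. Ndufv1, which binds NADH and flavin, was at 72.4, 70.5 and 63.6 FPKM and then 64.5, 58.6 and 54.0 (log2 fold change -0.22, SE 0.103, adjusted p = 0.297, limma). Its groups overlapped.

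Ndufs5, an accessory subunit of the membrane arm of complex I, fell. Its levels were 73.6, 88.9 and 72.4 FPKM in the controls and 56.9, 46.3 and 49.6 in the knockouts, or 78.3 ± 9.20 and 50.9 ± 5.45 (mean ± SD, n = 3). Each knockout library was below each control library. The log2 fold change was -0.61 (SE 0.122, 95% interval -0.89 to -0.33, limma's adjusted p = 0.0461), which leaves 65.0% of the control mean. An exact two-sided permutation test over the 6 libraries gave p = 0.1, the smallest that 3 against 3 allows. The call did not hold when the low-value filter was dropped (adjusted p = 0.0786), without the mean-variance trend (0.0631), or with libraries scaled without Rmrp (log2 fold change -0.51, adjusted p = 0.0573), all by limma. Leaving out 1 library left the log2 fold change between -0.69 and -0.52. The limma's adjusted p was 0.0956, 0.184 and 0.0961 without control 1, 2 and 3, 0.0823 and 0.214 without knockout 1 and 2, and 0.0368 without knockout 3. The gene lies at chr4:123712710-123718202 (mm10, minus strand) and shares no exon bases with another gene. A stretch of 319 bases of its transcript matched the processed pseudogene BC002163 at 99.4% identity, so reads from that stretch cannot be told apart.

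Other complex I genes, Ndufs6, Ndufb3 and Ndufb5, were also lower in every knockout library and did not pass the test. Ndufs6, a zinc-binding accessory subunit, was at 81.3, 74.6 and 74.6 FPKM in controls and 58.9, 55.2 and 58.8 in knockouts. The groups lay well apart, with a log2 fold change of -0.41 (SE 0.086, limma's adjusted p = 0.0534). Ndufs6 passed with library weights (limma's adjusted p = 0.0215), with a replicate block (0.00518) and without knockout 3 (0.0392). It did not pass when any other library was left out (0.135 to 0.255), or with quantile, median and no-Rmrp scaling (0.083 to 0.115). It lies at chr13:73319838-73328542 (mm10, minus strand), overlaps an exon of Mrpl36 on the opposite strand and shares 287 bases at 95.8% identity with the pseudogene Ndufs6b. Ndufb3, an accessory subunit of the membrane arm, was at 58.1, 63.6 and 60.9 FPKM and then 48.9, 48.4 and 48.3. Its knockout libraries were nearly alike (48.6 ± 0.347, SD, n = 3). The log2 fold change was -0.32 (SE 0.084, limma's adjusted p = 0.0904, and 0.148 to 0.254 with quantile, median and no-Rmrp scaling). Ndufb3 passed with library weights (limma's adjusted p = 0.0231) and with a replicate block (0.0118). It did not pass when any library was left out (0.0856 to 0.319). Ndufb5, at 57.9, 51.3 and 54.4 FPKM and then 49.9, 50.3 and 46.4, differed by -0.15 (SE 0.091, limma's adjusted p = 0.409).

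Ndufv3 had the largest positive difference of all members. This accessory subunit sits beside the flavoprotein that oxidises NADH. Its levels were 72.2, 54.7 and 48.1 FPKM in controls and 128.9, 128.6 and 78.1 in knockouts, or 58.3 ± 12.4 and 111.8 ± 29.2 (mean ± SD, n = 3). The groups did not overlap, but knockout 3 lay near the highest control. The log2 fold change was 0.91 (SE 0.227, 95% interval 0.38 to 1.44) and missed the threshold (limma's adjusted p = 0.0803). It passed with quantile normalization (adjusted p = 0.0478), median scaling (0.038), scaling without Rmrp (0.0293) and without knockout 3 (1.15, adjusted p = 0.00838), all by limma. Library weights (limma's adjusted p = 0.00887) and a replicate block (0.00336) also gave a pass. Leaving out any other library did not (0.0956 to 0.294). The gene lies at chr17:31520115-31531331 (mm10, plus strand) and shares no exon bases with another gene.

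**Figure D2:**
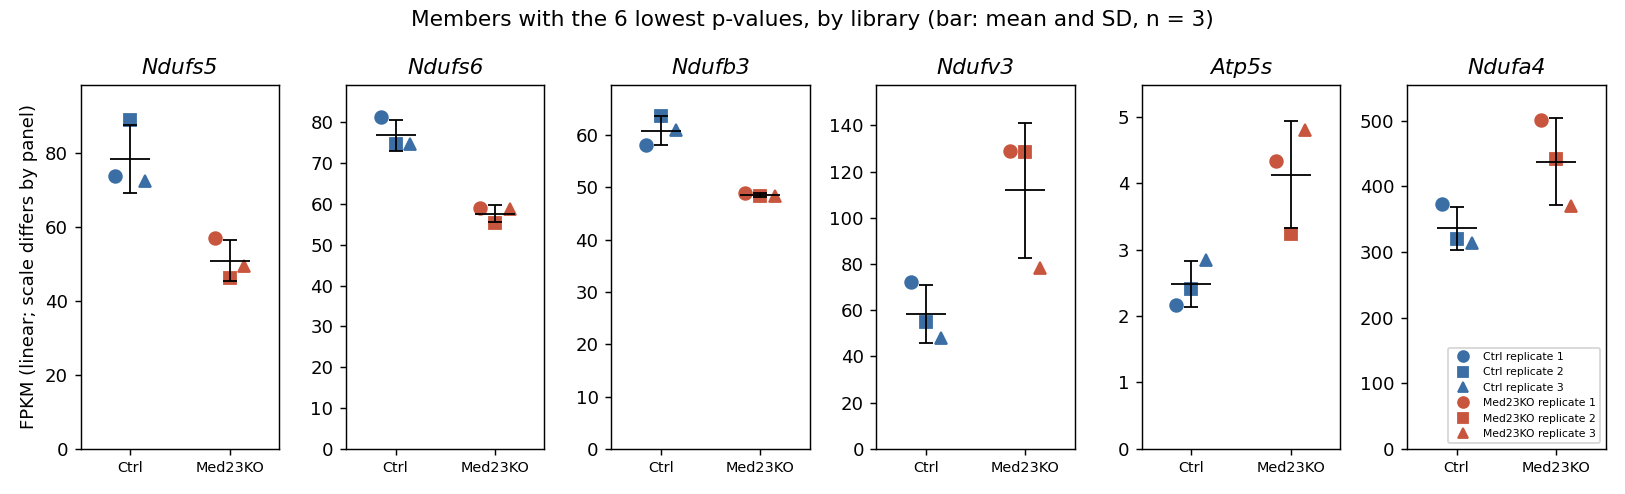
FPKM in each library (vertical axis, linear, its own scale in each panel, starting at 0) for the 6 members with the lowest p-values; points are libraries, marked by replicate number, and bars give the mean and SD of 3. Ndufs5, Ndufs6 and Ndufb3 are lower in every knockout library, Ndufv3 and Atp5s are higher in every one, and the ranges of Ndufa4 overlap between 371 and 374 FPKM.

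Complexes II and III held no member called and none whose groups did not overlap. Complex II is succinate dehydrogenase, the enzyme shared with the tricarboxylic acid cycle, and its catalytic subunit Sdha was at 91.6, 90.8 and 86.9 FPKM in controls and 88.9, 88.1 and 80.2 in knockouts. Sdhd, a membrane anchor and the most abundant of the 4, had the most negative log2 fold change (-0.10, SE 0.114), and the iron-sulphur subunit Sdhb the most positive (0.10, SE 0.132). In complex III, which hands electrons to cytochrome c, Uqcrq was the most abundant at 280, 282 and 249 FPKM and then 316, 235 and 242. Uqcrh, the hinge protein, had the most positive value (0.17, SE 0.146) and Uqcr11 the most negative (-0.21, SE 0.159). Cyc1, the haem-bearing cytochrome c1, was at 149, 127 and 99.2 FPKM and then 135, 118 and 84.1, lower in the library numbered 3 than in the others of either group.

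Complex IV reduces oxygen, and its widely expressed subunits were among the most abundant members. Cox7c was at 623, 598 and 554 FPKM in controls and 646, 630 and 500 in knockouts, which is the same mean of 592 in both groups. Ndufa4 had the most positive value of this complex, at 374, 320 and 314 FPKM and then 502, 441 and 371. Its knockout 3 lay just below the highest control, and the log2 fold change of 0.38 (SE 0.133) did not pass the test (limma's adjusted p = 0.176, exact permutation p = 0.2). It passed with scaling without Rmrp (0.47, limma's adjusted p = 0.0389) and without knockout 3 (0.49, limma's adjusted p = 0.0419). Library weights (limma's adjusted p = 0.0249) and a replicate block (0.00988) also gave a pass. Leaving out any other library did not (0.188 to 0.44). Cox7b was lower in every knockout library, at 121, 111 and 124 FPKM and then 95.8, 111 and 109, by a log2 fold change of only -0.18 (SE 0.096, limma's adjusted p = 0.377).

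The muscle isoforms Cox6a2 and Cox8b were at or near 0 in both groups. Cox6a2 was listed at 0 in all 3 controls and at 0.391, 0 and 0.322 FPKM in the knockouts, while its widely expressed partner Cox6a1 was at 191 to 285 and 171 to 284. Cox8b was listed at 0 in 5 libraries and at 1.24 FPKM in knockout 3, against 442 to 563 and 438 to 604 FPKM for its partner Cox8a. A listed 0 can be a failed estimate, so no fold change was formed for either. Cox6b1, the partner of Cox6b2 below, was at 451 to 543 and 485 to 519 FPKM.

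Cox7a1 was the muscle isoform that reached the tested range. It was at 7.17, 4.26 and 6.87 FPKM in controls and 3.18, 6.92 and 3.18 in knockouts. Knockout 2 lay among the controls, and the log2 fold change of -0.43 (SE 0.288) did not pass the test (limma's adjusted p = 0.476). Its partner Cox7a2 was at 140, 137 and 111 FPKM and then 138, 140 and 114, so Cox7a1 amounted to 3.10% to 6.20% of Cox7a2 in controls and 2.30% to 4.93% in knockouts. The log2 ratio of the pair was lower by 0.45 in knockouts, with an exact two-sided permutation p = 0.2 (0.4 after Benjamini-Hochberg adjustment over 2 pairs). The 5 tested genes whose log2 levels over the 6 libraries correlated best with Cox7a1 were 4632415L05Rik (r = 0.99), Mettl6, Tom1l1, Gm38248 and Gm37409 (each r = 0.97), a description over 6 points.

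The other tissue-restricted isoforms were low as well, apart from Cox6b2, the form known from testis. Cox6b2 was at 24.3, 20.7 and 14.2 FPKM in controls and 27.5, 24.6 and 17.3 in knockouts, and its log2 ratio to Cox6b1 differed by 0.23 (exact two-sided permutation p = 0.4, 0.4 after adjustment over the 2 pairs). Cox4i2, the oxygen-sensitive form known from lung, was at 0.519, 0.271 and 0.549 FPKM and then 0.331, 0 and 0.313. Its partner Cox4i1 was at 301 to 389 and 303 to 397. Ndufa4l2, known as a hypoxia-induced form, was at 0.413, 0 and 0 FPKM and then 0.196, 0.183 and 0.0917. Cox7b2 and Cox8c were listed at 0 in all 6 libraries. Muscle creatine kinase, Ckm, which marks mature fibres, was also below the tested range, at 0 to 0.42 FPKM.

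**Figure D3:**
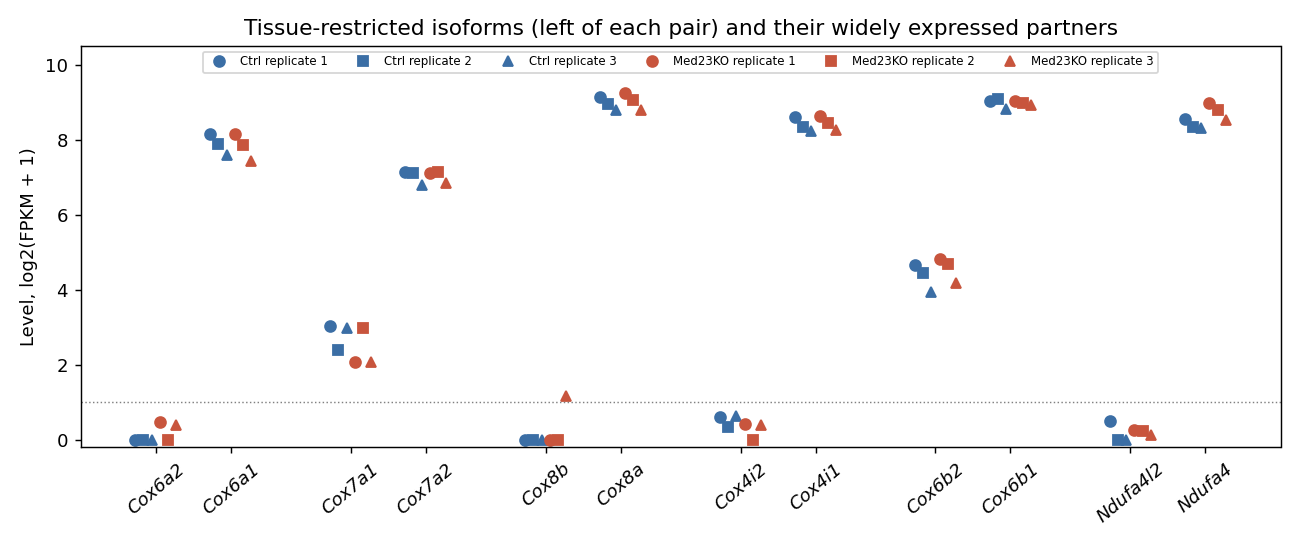
Level of each tissue-restricted isoform and, to its right, its widely expressed partner in every library (vertical axis, log2(FPKM + 1); the dotted line marks 1 FPKM). Cox6a2 and Cox8b lie at or near 0 in both groups, Cox7a1 and Cox6b2 lie in between, and the partners lie above all of them with the groups overlapping.

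Complex V, the ATP synthase, held the most abundant member of all. Atp5b, the catalytic beta subunit, was at 785, 728 and 684 FPKM in controls and 765, 737 and 643 in knockouts (log2 fold change -0.04, SE 0.103). The 3 genes for the same membrane ring subunit kept their order, with Atp5g3 at 380 to 462 and 337 to 439 FPKM, Atp5g2 at 185 to 242 and 166 to 219, and Atp5g1 at 123 to 178 and 107 to 151. The most negative value was that of Atp5j2, at 175, 155 and 151 FPKM and then 161, 128 and 105 (log2 fold change -0.31, SE 0.157, limma's adjusted p = 0.342). Atp5k was the least certain member, at 87.4, 144 and 82.8 FPKM and then 165, 89.2 and 51.0, with an interval from -1.10 to 0.79. Atp5s, whose product is not a structural subunit, was the lowest tested member at 2.17, 2.41 and 2.85 FPKM and then 4.34, 3.24 and 4.81. Its knockouts were all above its controls, with a log2 fold change of 0.55 (SE 0.160, limma's adjusted p = 0.117). Atp5s passed with library weights (limma's adjusted p = 0.0265) and with a replicate block (0.0273), and in 0 of the fits with 1 library left out.

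The members' levels differed from library to library within each group. Relative to the control mean, their median log2 level was 0.12, 0.02 and -0.12 in controls 1 to 3 and 0.10, -0.01 and -0.23 in knockouts 1 to 3. Over all tested genes the same medians were 0.03, 0.02 and -0.04, then 0.01, 0.01 and -0.10. Control 3 and knockout 3 were both the lowest of their group in 54 members (68.4%), against 39.7% of all tested genes. Complex V was the lowest in knockout 3, with a median of -0.32.

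**Figure D4:**
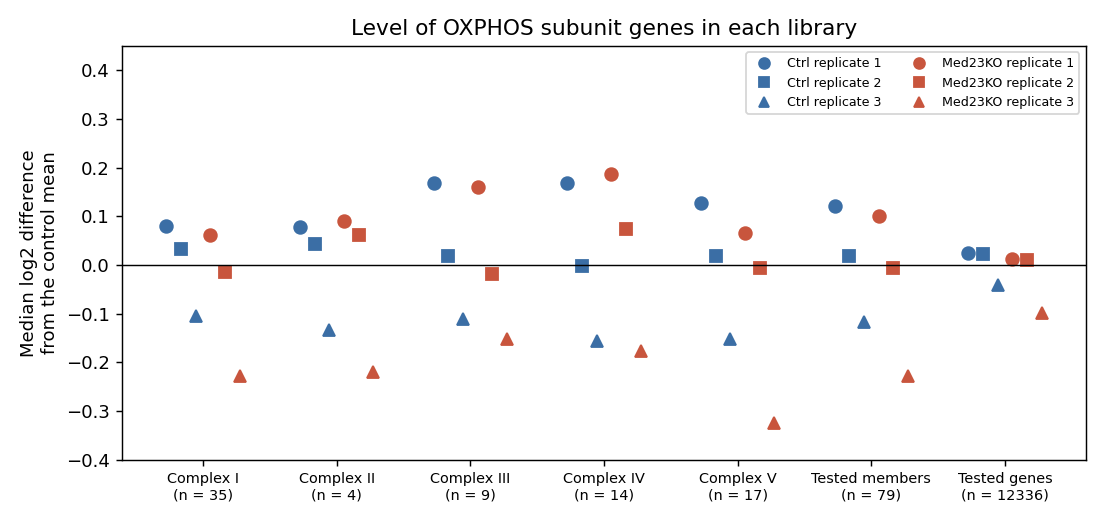
Median log2 level of the members of each complex, of all tested members and of all tested genes in every library, relative to the control mean (vertical axis, log2; n gives the genes in each set). In each complex the libraries numbered 3 (triangles) are the lowest of their group, and knockout 3 is lowest for complex V at -0.32.

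These library differences went with the base composition of the transcripts. Members with a higher GC content were lower in the libraries numbered 3. Across the 79 members, the log2 difference of control 3 from controls 1 and 2 correlated with transcript GC content with r = -0.52, and that of knockout 3 from knockouts 1 and 2 with r = -0.56. Over 10941 tested genes with a transcript the values were -0.62 and -0.57, so the relation was not particular to members. These are descriptions across genes, which share libraries and are not independent. Ndufa13, with 60.4% GC, was at 21.4, 20.2 and 12.9 FPKM in controls and 24.2, 16.2 and 8.68 in knockouts, low in the library numbered 3 of each group. Cox7b, with 42% GC, was not low there. Members' median GC content was 51.9%, against 50.5% for tested genes, and their median transcript length 748 bases, against 2755. Their median log2 difference was -0.17 for control 3 and -0.34 for knockout 3, against -0.06 and -0.13 over all tested genes. Whether GC content accounts for this larger difference of the members was not tested. GC content correlated less with the fold change itself (r = -0.18 over the 79 members).

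**Figure D5:**
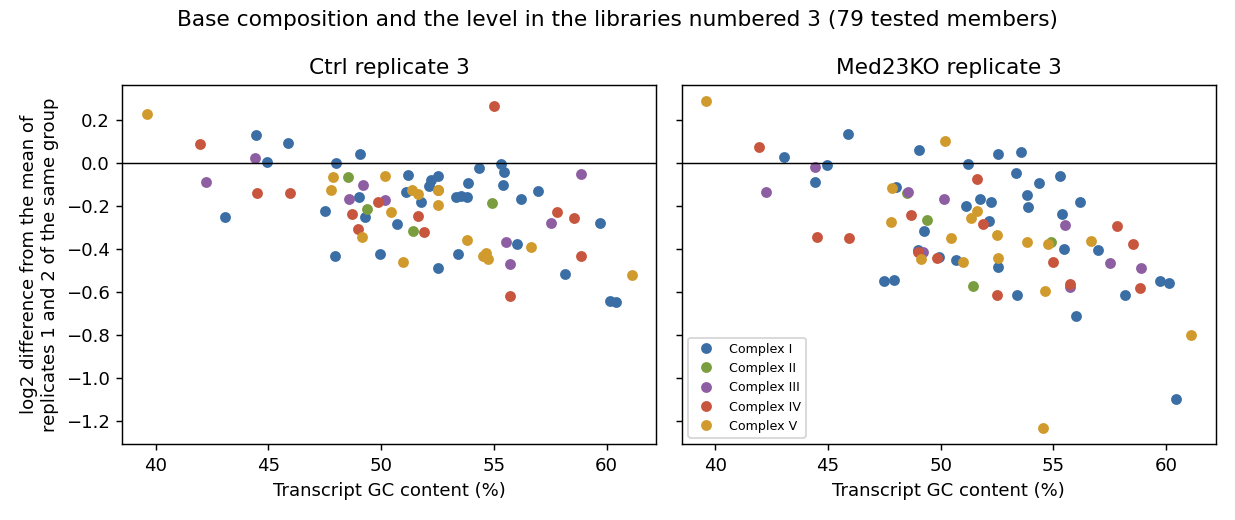
Transcript GC content (horizontal axis, percent) against the log2 difference of control 3 (left) and knockout 3 (right) from the mean of the other libraries of its group (vertical axis), one point per tested member, coloured by complex. Members with more GC lie lower in both panels (r = -0.52 and -0.56).

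Which members passed differed when both libraries numbered 3 were left out, and when the GC trend was removed from each library, a fit over the 10941 genes with a transcript GC content. Without those libraries Ndufs5 (limma's adjusted p = 0.0247), Ndufs6 (0.0315) and Ndufv3 (0.00476) passed. In the GC fit Ndufs5 (0.0243), Ndufs6 (0.042), Ndufb3 (0.0403), Ndufv3 (0.00939) and Atp5s (0.0477) passed, all by limma. Both settings were chosen after the library pattern was seen. The fit without those libraries called 727 genes higher and 482 lower of 12336, and the GC fit 629 higher and 430 lower of its 10941. How much of the GC fit's difference came from the smaller gene set was not tested. The members' median log2 fold change was -0.02 and -0.01 in these fits, closer to 0 than the -0.06 above.

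The counting of some members is uncertain for other reasons. Of the 85, 23 share a stretch of at least 150 bases at 95% identity or more with another annotated gene, in large part processed pseudogenes. Exons of 29 members overlap those of another gene, 5 on the same strand and 26 on the opposite one. The libraries were strand-specific, but whether strand was used in counting is not given in the sources used here.

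Other genes of the pathway also had few calls. Over all 12336 tested genes 6770 were below 0. The share called was 2.91%, and at that share lists this short would hold few calls. Of 50 tested assembly factors, which build the complexes, 0 were called and 37 were below 0, with a median log2 fold change of -0.13. Ndufaf2, a complex I assembly factor, came closest at 14.7, 16.2 and 17.5 FPKM and then 11.4, 9.18 and 11.3 (-0.56, SE 0.122, limma's adjusted p = 0.0594). With libraries scaled without Rmrp the median was -0.05, with 29 below 0 and again 0 called. The GC fit called 4 of them lower, and 1 was higher and 1 lower without both libraries numbered 3 and also without knockout 3. The 4 subunit genes outside the name patterns (Ndufab1, Usmg5, 2010107E04Rik and Cycs for cytochrome c) had 0 called and a median of -0.05. Of 18 tested genes of the tricarboxylic acid cycle and pyruvate dehydrogenase, 0 were called, with a median of -0.08. Pdha1, the E1 alpha subunit of pyruvate dehydrogenase, had the lowest adjusted p (-0.22, SE 0.080, limma's adjusted p = 0.186), at 71.6, 74.1 and 73.5 FPKM in controls and 61.4, 62.4 and 63.9 in knockouts. The mitochondrially encoded subunits were not analysed here.

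Of 14 tested regulators of mitochondrial biogenesis, 1 fell and 0 rose, where 1.42% of all tested genes were called lower and 1.49% higher. With so few genes, that count cannot be set apart from the share over all tested genes. Pprc1, a PGC-1 related coactivator, was at 29.6, 27.2 and 23.9 FPKM in controls and 18.9, 17.8 and 16.4 in knockouts (log2 fold change -0.57, SE 0.113, limma's adjusted p = 0.0442), and the groups did not overlap. That call held without knockout 3 (limma's adjusted p = 0.0378) and was lost when any other library was left out (up to 0.198), with no filter on low values (0.0726) and without the mean-variance trend (0.0561). Ppargc1a, which encodes PGC-1 alpha, was at 1.39, 0.736 and 0.53 FPKM and then 1.34, 1.67 and 1.03, with the groups overlapping. Nrf1 (18.3, 19.2 and 17.5, then 16.8, 15.1 and 16.3 FPKM; -0.18, SE 0.096), Tfam, the mitochondrial DNA packaging factor (-0.20, SE 0.127), Gabpa (-0.15, SE 0.113) and Esrra (0.10, SE 0.266) did not pass the test.

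Genes for proteins of the outer membrane, of import and of folding had log2 fold changes below 0 in 18 of 18 tested (6770 of all 12336 tested genes were below 0), with a median of -0.21 and 0 called. Scaled without Rmrp, 14 of the 18 were below 0, with a median of -0.12. The GC fit called 2 of them lower, and 1 was lower without both libraries numbered 3 and also without knockout 3. Hspd1, the matrix chaperonin, was at 253, 239 and 301 FPKM and then 166, 180 and 226 (-0.48, SE 0.142, limma's adjusted p = 0.125). Among genes of muscle energy transfer, the ADP/ATP carrier Slc25a5 was at 601, 608 and 548 FPKM and then 510, 505 and 459 (-0.25, SE 0.091, limma's adjusted p = 0.18). Its muscle counterpart Slc25a4 was at 244, 231 and 197 and then 263, 227 and 187.

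Of 26 tested genes of muscle differentiation, 6 rose (Actc1, Actn2, Mef2c, Mybpc1, Myl4 and Tnnc1) and 0 fell, with a median log2 fold change of 0.90, where 1.49% of all tested genes were called higher and 1.42% lower, beside 0 higher and a median of -0.06 for the 79 subunits. Without control 2 or knockout 2 the count was 0 higher, and without knockout 3 it was 14 higher and 1 lower, while the median stayed between 0.77 and 1.12 with any 1 library left out. The summed level of the fibroblast markers given above also did not overlap between the groups, and its part here was not tested. Mef2c, a myogenic transcription factor, was at 1.39, 0.989 and 0.994 FPKM and then 3.09, 3.98 and 4.72 (1.21, SE 0.169, limma's adjusted p = 0.0197), a call lost without control 2, control 3 or knockout 2 (adjusted p up to 0.128). Of 12 tested genes of muscle energy transfer, 1 rose and 1 fell, beside the same 1.49% and 1.42% of all tested genes. Of the 12, 2 were below 0, and the median log2 fold change was 0.25. Scaling without Rmrp gave 3 higher and 1 lower, and leaving out knockout 3 gave 4 higher and 1 lower. Without any other library the counts were 0 higher and 0 lower. Slc25a34, a mitochondrial carrier, rose from 2.32, 1.47 and 0.622 FPKM to 17.9, 20.3 and 6.06 (2.58, SE 0.442, limma's adjusted p = 0.0308). Eno3, the muscle enolase of glycolysis, fell from 277, 297 and 276 FPKM to 169, 161 and 194 (-0.70, SE 0.098, limma's adjusted p = 0.0197). Both calls held without knockout 3 and were lost when any other library was left out (limma's adjusted p up to 0.15 for Slc25a34 and 0.13 for Eno3).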

How the data were processed

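RNA was measured in 6 poly(A)-selected, strand-specific libraries, which the authors processed with cutadapt, FastQC, STAR and Cuffdiff on mm10, per the submitters' processing notes; the versions, annotation and strand setting were not given in the sources used here. The authors deposited 1 table of FPKM per gene and library with Cuffdiff q-values, and the depth is unknown. Of 12368 genes listed by Ensembl identifier, 12316 were named from GENCODE vM21. Values were taken as log2(FPKM + 1), 12336 genes averaging 1 FPKM or more were kept, and limma 3.58.1 (R 4.3.3) with a mean-variance trend compared genotypes, two-sided, with Benjamini-Hochberg adjustment over all tested genes at 0.05. Single values and isoform ratios had exact permutation tests. The members and gene lists were chosen with earlier results of these data known. The text names called members, isoforms, each complex's highest and extreme members, from the pathway lists genes with a low adjusted p, and a few set regulators; further members (Ndufs1, Ndufv1, Ndufs6, Ndufb3, Ndufb5, Cox7b, Cyc1, Sdha, Ndufa13, Atp5c1, Atp5k and the Atp5g genes, with Slc25a4 and Slc25a5) were chosen after their values were seen. Tested on simulated data of 12336 genes for this comparison, the fit recovered 32.5% of 1.5-fold, 71.7% of 2-fold and 95.2% of 4-fold changes. The simulation was a single draw with independent noise per gene and no GC trend. Its changes were placed only in genes averaging at least 5 FPKM, so recovery in the real libraries can differ. Pseudocount, filter, scaling, trend, library weights, replicate block and left-out libraries were varied.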

Additional observations from a re-analysis of the deposited data

How the results depend on the processing

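The members' median log2 fold change stayed within the spread between replicates in every setting tried, between -0.13 (without control 3) and 0.05 (without knockout 3). Higher and lower calls over all genes were 184 and 175 (51.3% higher); median scaling gave 351 higher (63.9% of its calls), scaling without Rmrp 489 higher and 157 lower (75.7% higher), quantile normalization 298 higher, no filter 73 and 84, library weights 850 and 850, and the authors' deposited q-values 1029 and 897. Without both libraries numbered 3 the counts were 727 and 482, and with the GC trend removed 629 and 430 of a smaller set, the 10941 genes with a GC content. Leaving out 1 library gave 3 to 749 higher and 10 to 395 lower, with knockout 3 the library behind the highest counts.

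Members called higher numbered 0, against 1 with quantile normalization, 1 with median scaling, 2 without Rmrp, 3 with library weights, 1 without both libraries numbered 3, 2 with the GC trend removed, 2 by the authors' deposited q-values and 0 to 2 with 1 library left out. Members called lower numbered 1, against 0 with no filter, without Rmrp and without the trend, 3 with library weights, 2 without both libraries numbered 3, 3 with the GC trend removed and 0 to 2 with 1 library left out. The cause of these shifts was not tested. Med23 kept its direction without any 1 library (-1.06 to -0.86), with an adjusted p of 0.00869 to 0.108 by limma.

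Whether the replicate numbers pair the samples is not given. The deviations of same-numbered libraries from their group means correlated with r = 0.437, -0.016 and 0.563 over all tested genes. Over the members the values were 0.286, -0.283 and 0.712. Unlike numbers gave more than the first of these, with 0.437 for control 2 and knockout 1 and 0.439 for control 1 and knockout 2. Numbers 1 and 3 thus shared a pattern over all genes, but control 1 also correlated with knockout 2 (0.337). The deviations within a group cancel out, so the values for numbers 1 and 3 are not independent. These values do not settle the pairing, and the main fit left the number out. A fit with the number as a replicate block called 5 members higher and 7 lower (1180 and 1577 over all genes). Precision is limited by 3 libraries a group and an unknown depth: a 1.5-fold change of a single gene would often be missed.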
